A study of Mus musculus with 23 samples.

Results

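The nuclear-encoded subunits and assembly factors of the mitochondrial respiratory chain were followed in mouse embryonic stem (ES) cells transfected with SRF-VP16, an activating fusion of serum response factor. Members were all probe sets paired with a single gene symbol that begins with Nduf, with Sdh and a letter from a to d, with Uqcr, with Cox4 to Cox8, or with Atp5. This rule took 95 of 12436 probe sets, for 73 genes, and used no measured value. Complex I held 40 probe sets (31 genes), complex II 6 probe sets (6 genes), complex III 7 probe sets (7 genes), complex IV 22 probe sets (15 genes) and the ATP synthase 20 probe sets (14 genes).

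Total RNA was measured on 23 arrays in 12 groups, made of 4 ES cell lines and 3 plasmids, 72 h after transfection. The lines were E14 wild type (WT), E99 (E14-99 in the labels, genotype +/-), E81 (-/-) and E100 (-/-). The plasmids were the empty vector, SRFdM-VP16, which the labels call a control, and SRF-VP16. Each group had 2 arrays except E100 with vector, which had 1. The labels do not name the altered gene of the +/- and -/- lines, the share of cells that took up a plasmid, or whether duplicates were separate cultures, so p-values reflect only how far these arrays scatter. The -/- genotype was represented by these 2 lines alone, and all cells compared, controls included, had been transfected.

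The respiratory chain in the inner mitochondrial membrane passes electrons from NADH through complex I, and from succinate through complex II, to ubiquinone, then through complex III and cytochrome c to complex IV, which reduces oxygen. Complexes I, III and IV pump protons, and the ATP synthase uses the proton gradient to make ATP. Most subunits are encoded in the nucleus, and complex IV has tissue isoforms of several subunits. Pluripotent stem cells are known for a high rate of glycolysis beside respiration.

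The ES cell markers were present: all 12 of a list of 12 were measured, and Pou5f1, the pluripotency factor Oct4, ran from 5994 to 29982 in linear intensity, although Esrrb had a median of only 84. Array medians over all probe sets ran from 54 to 209, and 23.4% to 43.6% of an array's values were at or below 0. The 54 and the 43.6% both belonged to the first E81 array with SRFdM-VP16. Its Gapdh 5′ to 3′ signal was also the lowest, at -0.928 on the log2 scale, against a median of 0.203 over the arrays. This array enters every comparison that uses E81 with SRFdM-VP16. Intensities under 58, the 40th percentile of all values, were set to that floor before log2. With SRF-VP16 against SRFdM-VP16 over the 4 lines, 7 of 10 muscle markers tested rose, among them Tagln, an actin-binding protein of smooth muscle, by 5.16 on the log2 scale. In the same comparison 4 of 13 endoderm and trophoblast markers rose and 1 of 12 ES cell markers fell, where 173 of all 9643 probe sets tested rose and 16 fell. The median log2 change of the ES cell list was -0.45, against 0.08 for all probe sets. At an unadjusted p under 0.05 it had 5 of 12, against 13.4% of all. In E100 its summed intensity was 42338 to 54743 with SRF-VP16 and 101296 to 124986 with SRFdM-VP16. In E99 it was 78750 to 94157 and 95863 to 99915, also without overlap, while in WT and E81 these ranges overlapped. With vector, E99 read 81957 to 91080, within its SRF-VP16 range. The summed intensity of the muscle list was 11070 to 80296 with SRF-VP16 and 1212 to 2726 on all control-plasmid arrays but 2, the second WT array with vector (20896) and the second with SRFdM-VP16 (22680). Those 2 WT arrays also had the highest endoderm and trophoblast sums under the control plasmids (21802 and 19490, against 2831 to 7658 for the others). Every comparison that uses the WT controls includes them, and the part of these markers in the members' values was not tested beyond leaving both arrays out. In bulk RNA, fewer cells of a type and less RNA per cell cannot be told apart.

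Most respiratory chain genes gave bright, narrow signals. Of the 95 probe sets, 66 (69.5%) were above the floor in every array, against 37.9% of all probe sets, and 55 had a median intensity over 1000. Among probe sets above the floor in every array, the median ratio of the highest to the lowest array was 2.65 for the 66 members and 3.77 for all 4710. This ratio leaves out the dimmer members. All probe sets of complex II (6 of 6) and complex III (7 of 7) were above the floor in every array, as were 28 of 40 for complex I, 15 of 20 for the ATP synthase and 10 of 22 for complex IV. Signals of different probe sets depend on their probes, so their brightness does not order the levels of transcripts. A total of 85 probe sets (71 genes) passed the filter on dim signals and were tested: 35 of complex I, 6 of complex II, 7 of complex III, 18 of complex IV and 19 of the ATP synthase. The 10 others were Ndufa12, the 3 probe sets of Cox8b, and the dim probe sets of Atp5d, Ndufaf1, Ndufaf4, Ndufb2, Ndufb6 and Ndufa4l2, of which every gene but Ndufa12 and Cox8b had another probe set that was tested.

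**Figure D1:**
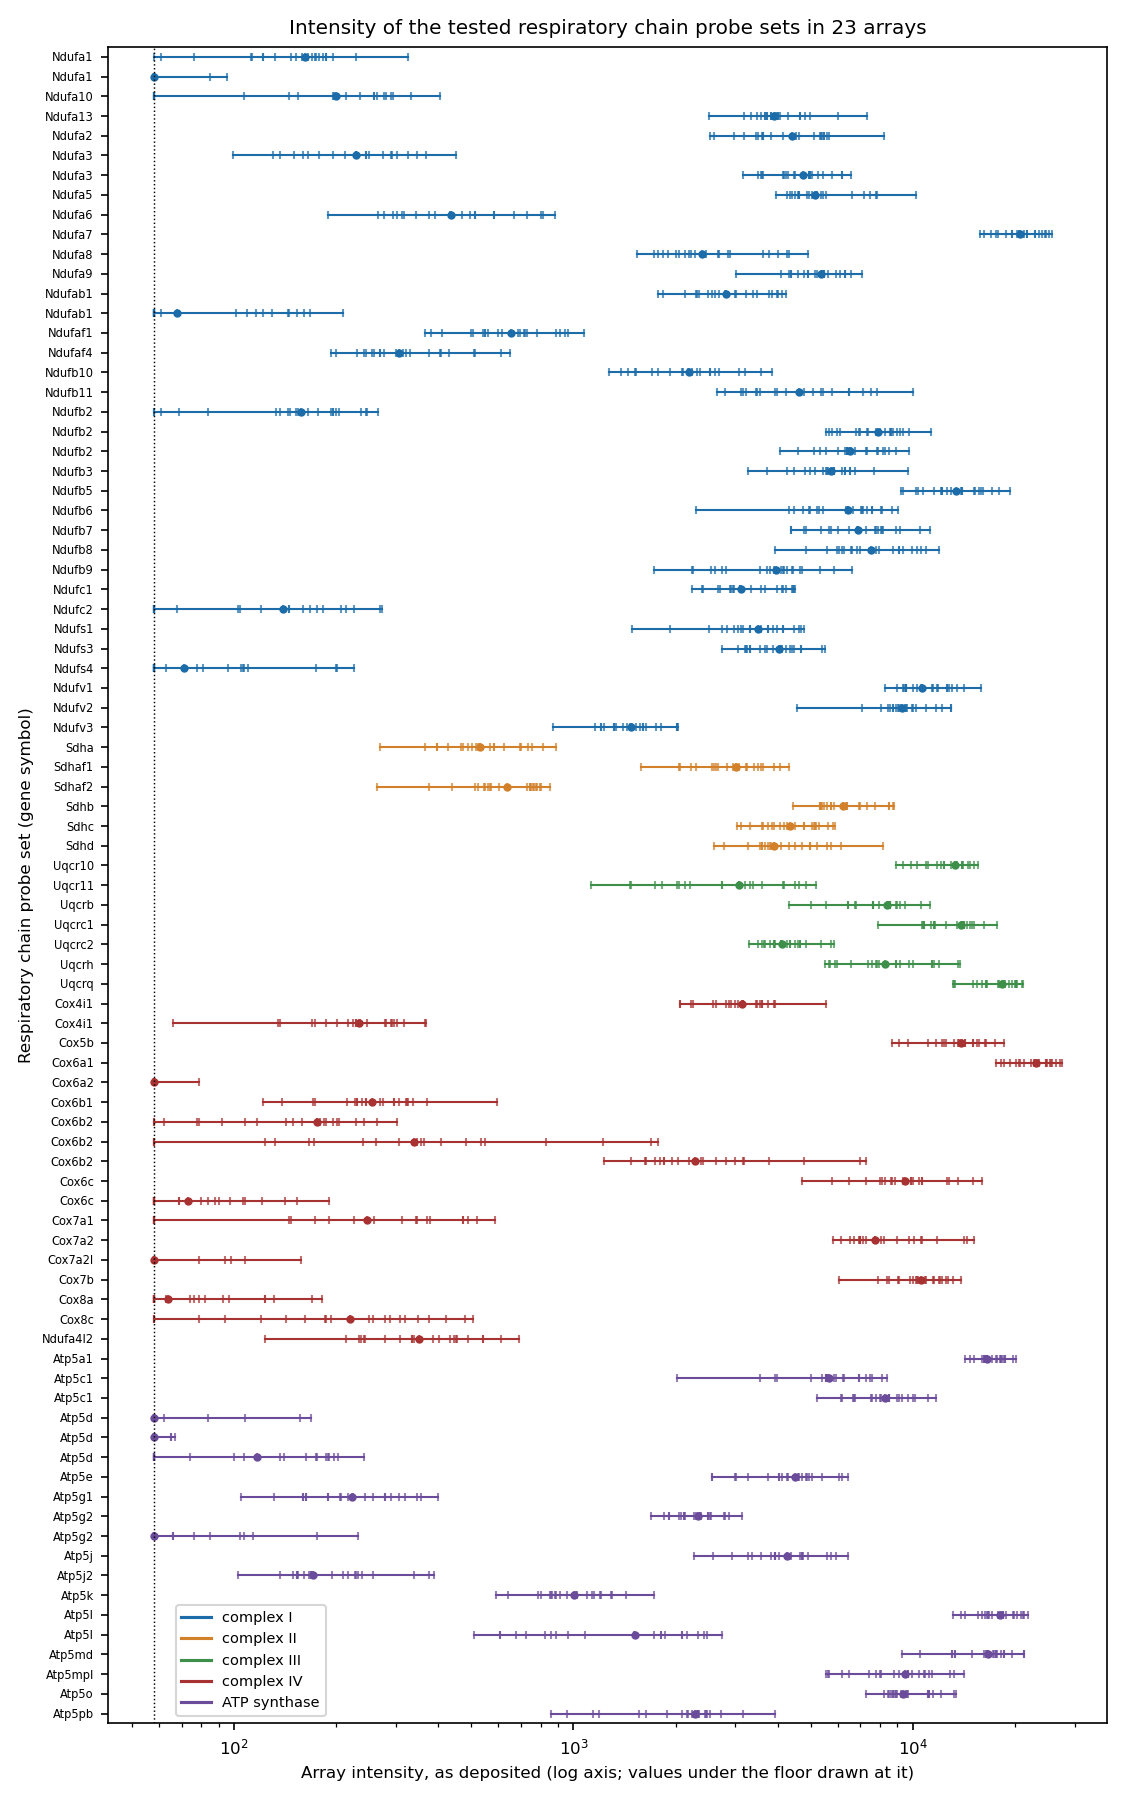
Deposited intensity (log axis) of the 85 tested respiratory chain probe sets in 23 arrays, in alphabetical order within each complex. Ticks are single arrays, points are medians, lines span the lowest to the highest array, and the dotted line is the floor of 58, at which lower values are drawn; complexes II and III lie wholly to its right, while complex IV holds many probe sets that touch it.

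The brightest complex I probe set was that of Ndufa7, an accessory subunit, with 15749 to 25733 (median 20755). Ndufv1 and Ndufv2, core subunits of the NADH-oxidising module, ran from 8281 to 15919 and from 4560 to 12998. Ndufs1, the largest core subunit, ran from 1490 to 4779, and Ndufs3, another core subunit, from 2736 to 5507. At the other end Ndufa12 was under the floor in all 23 arrays, with a highest value of 41. In complex II, Sdhb, the iron-sulphur subunit, ran from 4422 to 8809 and Sdha, the flavoprotein, from 270 to 890. In complex III, Uqcrq ran from 13143 to 21091, and Uqcr11, a small subunit, from 1125 to 5198, the widest relative span of that complex. In the ATP synthase, Atp5a1, the alpha subunit of its catalytic head, varied little, from 14229 to 20071, whereas all 4 probe sets of Atp5d, the delta subunit, had medians of 117 or less.

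Complex IV has general isoforms of several subunits and forms known from heart and skeletal muscle. The general forms were not uniformly bright, and the muscle forms measured stayed at 588 or below. Cox6a1, the general form of subunit 6a, ran from 17634 to 27439, and Cox6a2, the muscle form, was above the floor in 1 of 23 arrays, at 79. Cox7a2, the general form of subunit 7a, ran from 5804 to 15098, while Cox7a1, the muscle form, ran from -329 to 588 and was above the floor in 17 of 23 arrays. Cox8b, the muscle form of subunit 8, was above the floor in 1 array (E100 with vector, at 74) across its 3 probe sets. The probe set of Cox8a, the general form of subunit 8, was itself dim, from -276 to 181. Cox4i1, the general form of subunit 4, had a bright probe set from 2062 to 5539 and a dim one from 66 to 368, and Cox4i2 had no probe set among the members. Cox6b2, known as the testis form of subunit 6b, had its brightest probe set at 1228 to 7285, and the single probe set of Cox6b1, the general form, read 122 to 597.

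Promoters from RefSeq (GRCm38.p6), reaching from 250 bases before to 50 bases after a gene's start, were found for 59 of the 73 genes (64 promoters). Letters were searched on both strands. The core CCGGAAG bound by ETS factors such as GABPA, a known regulator of respiratory genes, stood in 18 of 64 promoters (28.1%), against 8.86% of 32851 promoters of the same length. The palindromic core of NRF1, a 10-base motif searched without mismatches, stood in 5 (7.81%, against 0.971%) and the YY1 core AAGATGGC in 8 (12.5%, against 2.75%). The element TCAAGGTCA of estrogen-related receptors stood in 1 (1.56%, against 0.423%) and TATAAA in 7 (10.9%, against 13.6%). The CArG box, the binding motif of serum response factor, stood in 0 of 64 promoters, against 1.63% of all, and its absence says only that these letters are not in this window. With looser letters, chosen after those counts had been seen, the NRF1 core with any base at one middle position stood in 13 promoters (20.3%, against 4.60%) and the shorter AAGGTCA, contained in the longer element, in 5 (7.81%, against 4.72%). None of the other motifs contains another, and a match is a description of letters and not of binding. The 4 promoters below are a selection from complex IV subunits 6a, 6b and 7a, all on chromosomes 5 and 7, with matches to the stricter motifs in capitals. Of these, Cox6b2 and Cox7a1 carry the line and plasmid differences described later. Not shown are Cox7a2, the general form of subunit 7a, and Ndufc2, which also has a plasmid difference described later. Both have none of the stricter motifs, so the 4 shown do not set general forms apart from tissue forms. Cox6a1 (chr5:115348909-115349208, minus strand) has an NRF1 core and an ETS core, Cox6b1 (chr7:30626065-30626364, minus strand) has an ETS core, and Cox6b2 (chr7:4753045-4753344, minus strand) and Cox7a1 (chr7:30183921-30184220, plus strand) have none of the motifs searched.
Cox6a1: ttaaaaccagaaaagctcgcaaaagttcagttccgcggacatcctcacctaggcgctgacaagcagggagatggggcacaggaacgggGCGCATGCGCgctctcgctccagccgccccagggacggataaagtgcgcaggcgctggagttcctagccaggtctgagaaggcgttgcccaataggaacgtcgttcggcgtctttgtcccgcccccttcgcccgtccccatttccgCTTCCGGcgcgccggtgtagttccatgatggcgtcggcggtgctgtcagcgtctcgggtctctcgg
Cox6b1: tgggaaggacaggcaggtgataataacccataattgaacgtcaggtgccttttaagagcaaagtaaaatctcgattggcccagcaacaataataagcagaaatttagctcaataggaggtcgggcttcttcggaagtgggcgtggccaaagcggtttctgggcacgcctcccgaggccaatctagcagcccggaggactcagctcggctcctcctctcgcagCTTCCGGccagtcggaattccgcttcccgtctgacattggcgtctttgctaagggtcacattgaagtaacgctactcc
Cox6b2: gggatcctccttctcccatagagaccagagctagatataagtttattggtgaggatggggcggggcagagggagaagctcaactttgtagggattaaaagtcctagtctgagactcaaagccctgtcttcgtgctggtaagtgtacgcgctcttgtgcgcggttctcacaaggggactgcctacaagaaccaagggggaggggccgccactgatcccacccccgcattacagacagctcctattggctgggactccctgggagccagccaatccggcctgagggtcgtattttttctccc
Cox7a1: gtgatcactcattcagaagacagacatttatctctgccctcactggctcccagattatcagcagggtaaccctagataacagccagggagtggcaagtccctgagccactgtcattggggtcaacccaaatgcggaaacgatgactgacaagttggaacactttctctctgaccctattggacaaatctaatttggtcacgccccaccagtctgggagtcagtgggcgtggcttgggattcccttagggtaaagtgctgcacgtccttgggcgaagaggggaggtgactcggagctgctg

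The first comparison asked whether SRF-VP16 changed the respiratory chain relative to SRFdM-VP16, as the mean of the 4 lines. None of the 85 members passed (limma, 5% false discovery rate), while 1.96% of all 9643 probe sets tested did. At an unadjusted p under 0.05 there were 3 members, against 13.4% of all probe sets. The median log2 change of the members was -0.05, against 0.08 for all probe sets. For 76 of the 85 (89.4%) the 95% interval of the change lay within 2-fold in either direction, against 68.3% of all, so larger changes were outside the interval for most members. By complex the medians were -0.01 for complex I, 0.09 for complex II, -0.07 for complex III, -0.13 for complex IV and 0.00 for the ATP synthase. The members' median lay below that of all probe sets by 0.13, and by 0.11 with quantile normalization. With median scaling, in which each array is divided by its own median, it lay below by 0.23. These scalings put the median over all probe sets at 0.00 and -0.17. With vector as the control the members' median minus that of all probe sets was 0.005. It was -0.002 without a filter, -0.002 with the floor at the 60th percentile and -0.17 with the filter there. The gap thus depended on the setting.

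The 3 members with an unadjusted p under 0.05 belonged to different complexes, and Sdhaf1 among them is an assembly factor. Atp5pb, a subunit of the stator that holds the ATP synthase together, read 861 and 1559 in WT, 1640 and 2449 in E99, 958 and 2320 in E81, and 1193 and 2181 in E100 with SRF-VP16. With SRFdM-VP16 it read 2533 and 2162 in WT, 2307 and 2727 in E99, 2092 and 2464 in E81, and 3926 and 2341 in E100. The group means were lower with SRF-VP16 in each of the 4 lines, while the 8 arrays of each plasmid overlapped. The log2 change was -0.71 ± 0.21 (SE, adjusted p = 0.125), and it passed with median scaling of arrays and when the second E81 array with SRF-VP16 was left out. With vector, Atp5pb read 1145 in E100, below both SRF-VP16 arrays of that line.

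Ndufb2, an accessory subunit of complex I, had 3 tested probe sets with different estimates. Its dim probe set read 137 to 246 with SRF-VP16 (median 161) and -231 to 237 with SRFdM-VP16 (median 76.5), a log2 change of 0.85 ± 0.20 (adjusted p = 0.053). Its brightest probe set stood at -0.25, with medians over 23 arrays of 7897 against 157 for the dim one. Sdhaf1, an assembly factor that delivers iron-sulphur clusters to complex II, had a median of 2429 with SRF-VP16 (1577 to 3398) and 3287.5 with SRFdM-VP16 (2603 to 4308). Its log2 change was -0.41 ± 0.17 (adjusted p = 0.314), and the arrays overlapped.

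The members with the largest estimates in each complex follow by role. In complex I the lowest estimates were Ndufaf4, an assembly factor, at -0.37 ± 0.25, and Ndufa2 at -0.25 ± 0.25, and Ndufa1 followed Ndufb2 among the positive estimates at 0.45 ± 0.26. In complex II, Sdhd, a membrane anchor, stood at 0.28 ± 0.18, Sdha at 0.19 ± 0.19 and Sdhb at -0.06 ± 0.14. In complex III, Uqcrq stood at -0.22 ± 0.13 and Uqcr10 at -0.20 ± 0.13, while Uqcrh (0.07 ± 0.23) and Uqcrb (0.05 ± 0.17) had the highest estimates. None of these passed, with adjusted p from 0.502 to 0.949. In complex IV the estimates ran from -0.98 ± 0.49 to 0.64 ± 0.40, and both ends were probe sets of Cox6b2. Among the isoforms Cox6a1 stood at 0.00 ± 0.11, Cox7a2 at -0.14 ± 0.24, Cox7a1 at 0.18 ± 0.34, and the bright probe set of Cox4i1 at -0.26 ± 0.18. Cox6a2 stayed at or near the floor with SRF-VP16 (-131 to 79), although 7 of 10 muscle markers rose.

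**Figure D2:**
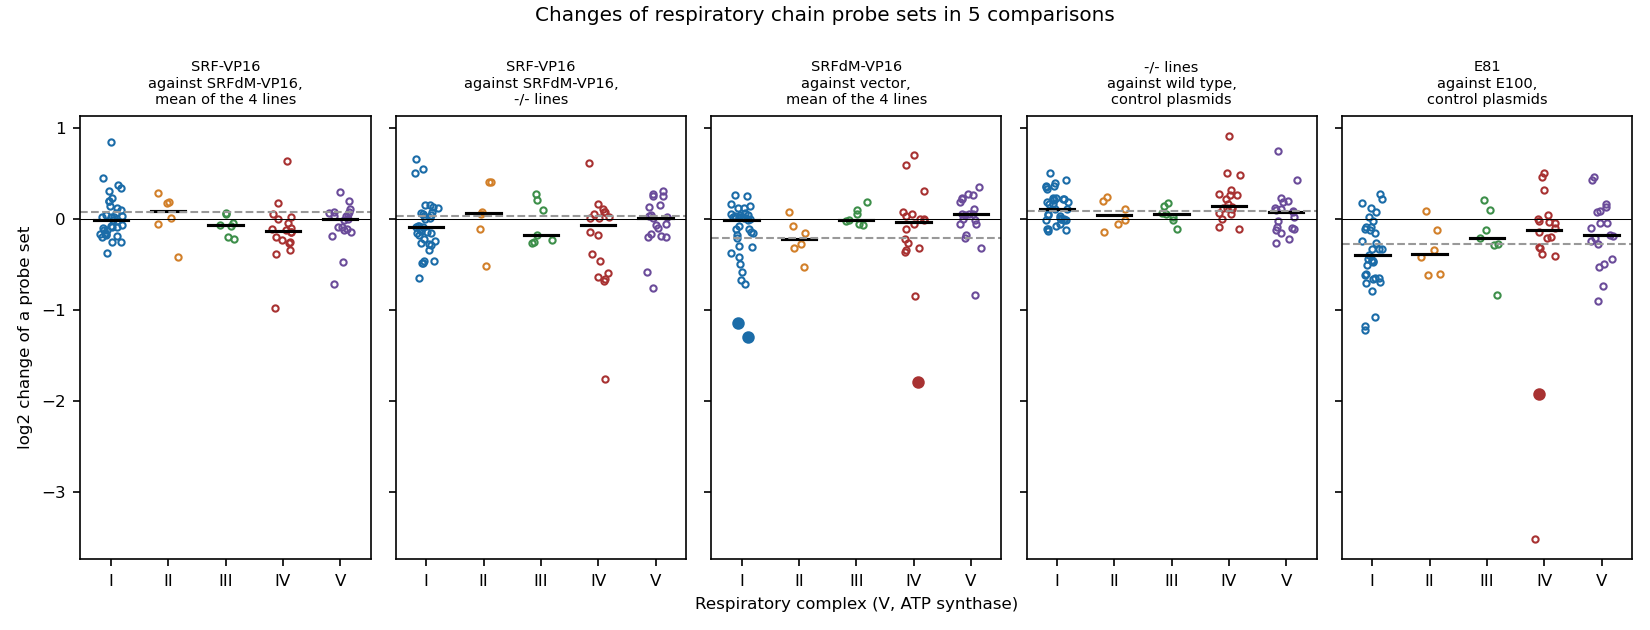
Log2 change (vertical axis) of each tested respiratory chain probe set by complex, in 5 comparisons. Open points did not pass the 5% false discovery rate, filled points did, short black lines are complex medians and dashed lines are medians of all 9643 probe sets; filled points appear for Ndufc2, Ndufb2 and Cox7a1 with SRFdM-VP16 against vector and for Cox6b2 in E81 against E100.

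In the -/- lines alone, 0 of 85 members passed for SRF-VP16 against SRFdM-VP16, where 2.82% of all probe sets did, and 4 had an unadjusted p under 0.05, against 13.4% of all. The members' median was -0.08, against 0.04 for all, and 60 of 85 intervals (70.6%) lay within 2-fold, against 43.8% of all. The lowest estimate was that of the second-brightest Cox6b2 probe set at -1.75 ± 0.70 (adjusted p = 0.271), which in E100 read 829 and 10 with SRF-VP16 and 1773 and 1225 with SRFdM-VP16. In E81 the same probe set read -99 and -78 with SRF-VP16 and -245 and 166 with SRFdM-VP16, so the E100 arrays carried the estimate. It passed when the first E100 array with SRF-VP16 was left out (adjusted p = 0.019). Atp5pb stood at -0.76 ± 0.30 (adjusted p = 0.271), Cox8a, which is near the floor, at -0.66 ± 0.25 (adjusted p = 0.234), and the dim probe set of Ndufb2 at 0.66 ± 0.29 (adjusted p = 0.332).

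Among the others, the dimmer probe set of Cox6c, a small subunit of complex IV, read 10 to 69 with SRF-VP16 and 73 to 141 with SRFdM-VP16. Its SRF-VP16 values of 10, 38 and 53 lay under the floor. Atp5j2 read 153 to 209 and 227 to 338. How many of all probe sets separate in this way was not counted, so nothing particular is read from it. The adjusted p for SRF-VP16 against SRFdM-VP16 were 0.454 (Cox6c) and 0.603 (Atp5j2), and the brighter probe set of Cox6c overlapped between these plasmids. Ndufaf4 stood at -0.65 ± 0.35, Sdhaf1 at -0.51 ± 0.25, Sdhaf2, a factor that helps to load the flavin of Sdha, at 0.41 ± 0.29, and Sdhd at 0.40 ± 0.25. In complex III the estimates ran from -0.26 (Uqcrq) to 0.28 (Uqcrb). The general isoforms stayed close to 0, with Cox6a1 at 0.01 ± 0.15 and Cox7a2 at 0.02 ± 0.33.

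In WT 0 of 85 members passed (0.0207% of all probe sets did), and 3 had an unadjusted p under 0.05 (3.59% of all). In E99 0 of 85 passed (0.0415% of all), and 5 had an unadjusted p under 0.05 (4.48% of all). With 2 arrays a group, 30 of 85 intervals in WT and 41 of 85 in E99 lay within 2-fold, so the precision was lower here. Without the 2 WT control arrays with high muscle markers, 0 of 84 members passed in WT, and the members' median moved from 0.00 to -0.03. In WT the dim probe set of Ndufab1, the acyl carrier protein of complex I, read 153 and 129 with SRF-VP16 and -10 and 0 with SRFdM-VP16, at 1.28 ± 0.33 (adjusted p = 0.936). With vector this probe set read 161 and 145 in WT, near its SRF-VP16 values. Atp5pb stood at -1.01 ± 0.43 in WT. In E99, Cox7a1 read 225 and 347 with SRF-VP16 and -329 and 19 with SRFdM-VP16, and 474 and 521 with vector, above both SRF-VP16 arrays. For SRF-VP16 against SRFdM-VP16 its log2 change was 2.27 ± 0.68 from values at the floor (adjusted p = 0.570). In WT, where it read 173 and 3 against -240 and 258, the estimate was -0.29 ± 0.68, and in the -/- lines it was -0.64 ± 0.48.

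The difference in the SRF-VP16 effect between the -/- lines and WT passed for 0 of 85 members, against 0.083% of all probe sets, with 1 member at an unadjusted p under 0.05 (5.32% of all). That member was the dim probe set of Ndufab1, at -1.74 ± 0.40 (adjusted p = 0.240), and it passed when the first E100 array with SRF-VP16 was left out. The difference in the effect between E81 and E100 passed for 0 of 85 as well, against 0.145% of all, with 11 at an unadjusted p under 0.05 (10.8% of all). The members' median difference was 0.45 and that of all probe sets 0.52, which fell to 0.13 and 0.02 after quantile normalization and turned to -0.31 and -0.10 with median scaling.

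Lines were then compared under the control plasmids, vector and SRFdM-VP16 with equal weight. Between the -/- lines and WT, 0 of 85 members passed, against 0.083% of all probe sets, and 1 had an unadjusted p under 0.05 (6.32% of all). The members' median was 0.11, against 0.09 for all probe sets (0.07 and 0.09 without those 2 WT arrays, with 0 of 84 members past the threshold), and 68 of 85 intervals lay within 2-fold. The single member was the dimmer probe set of Atp5l, a membrane subunit of the ATP synthase. It read 825, 859, 1081 and 964 in WT, 1730, 2474, 725 and 675 in E81, and 1809, 2738 and 1812 in E100. The log2 change was 0.75 ± 0.31 (adjusted p = 0.729), with E81 high under vector and low under SRFdM-VP16, and the brighter Atp5l probe set ran from 13174 to 21791 over all arrays. By complex the medians ran from 0.05 (complexes II and III) to 0.15 (complex IV). The largest estimate was that of Cox8c, another isoform of subunit 8, at 0.91 ± 0.56, and the lowest that of Atp5mpl, a small membrane subunit of the ATP synthase, at -0.26 ± 0.28.

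Between the -/- lines, 1 of 85 members passed, lower in E81 than in E100, where 0.788% of all probe sets passed, all of them lower in E81. This was Cox6b2. Its brightest probe set read 7285 in E100 with vector and 6980 and 4781 in E100 with SRFdM-VP16. In E81 it read 1854 and 2028 with vector and 1852 and 1228 with SRFdM-VP16, so the lines did not overlap. The log2 change was -1.92 ± 0.31, 3.79-fold lower in E81 (adjusted p = 0.0095). WT read 3160, 2369, 3191 and 2416 and E99 read 1800, 2822, 1638 and 2286 under the same plasmids, between both -/- lines apart from the overlap of E99 with E81. With SRF-VP16, E100 read 3761 and 1482 and E81 read 1744 and 2197, and these overlapped.

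The other probe sets of Cox6b2 gave the same order only where they had signal. The second-brightest read 1694, 1773 and 1225 in the E100 controls and 123, 306, -245 and 166 in the E81 controls, a log2 change of -3.52 ± 0.78 (adjusted p = 0.057). The dimmest lay near the floor in both lines (-62 to 302) and stood at -0.31 ± 0.63. Cox6b1 read 295 to 597 in the E81 controls and 173 to 325 in the E100 controls, at 0.46 ± 0.40 (adjusted p = 0.654). The call on Cox6b2 was kept in 30 of 32 alternative settings. It was lost with median scaling, at a log2 change of -1.24 (adjusted p = 0.265), and with vector alone, where E100 has 1 array, at -1.91 (adjusted p = 0.221). Over the 32 settings the change ran from -2.07 to -1.24. Many of these settings left out 1 array that this comparison does not use, which changes the estimate little. Array medians ran from 54 to 209 in the E81 controls and from 179 to 192.5 in the E100 controls. The 54 was that of the first E81 array with SRFdM-VP16, which also gave the -245 of the second-brightest probe set. The part of this background in the dimmer probe sets was not tested.

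**Figure D3:**
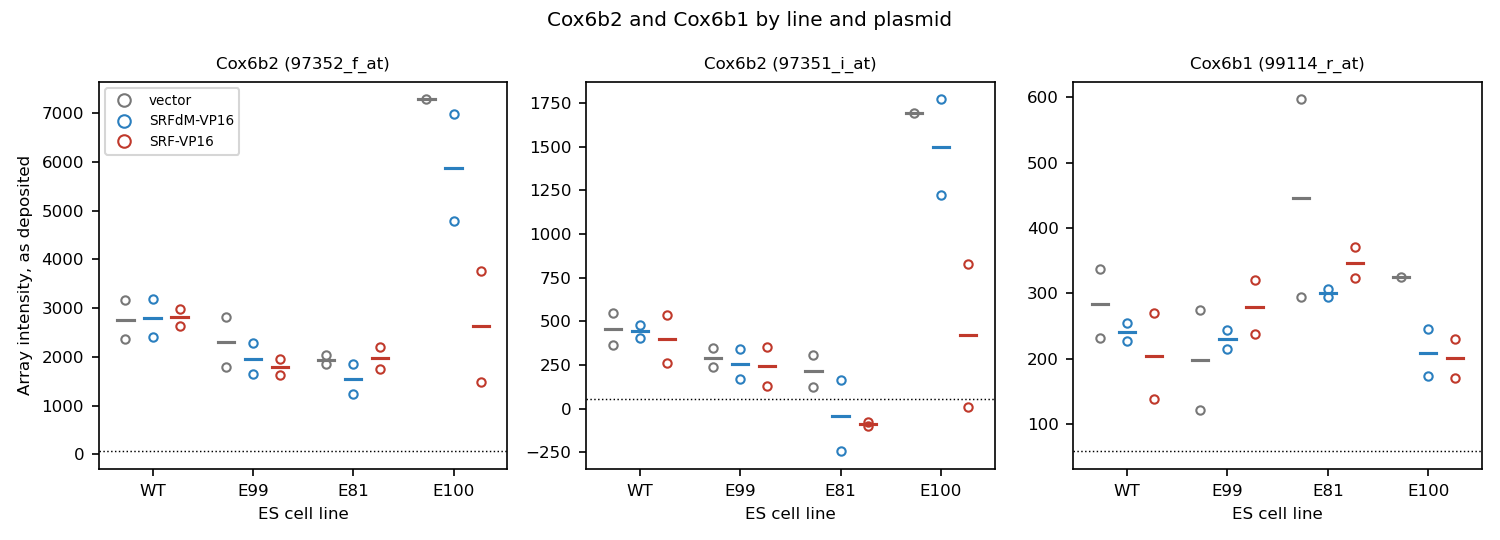
Deposited intensity (linear axes) of 2 Cox6b2 probe sets and of Cox6b1 by line and plasmid. Circles are arrays, bars are group means and the dotted line is the floor of 58; for both Cox6b2 probe sets the E100 control arrays lie above all other arrays, and for Cox6b1 they lie within the range of the others.

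Of the rest, 5 probe sets had an unadjusted p under 0.05 (13.7% of all tested), and all of them were lower in E81: the second Cox6b2 probe set above and the dim probe set of Ndufb2, with Ndufa8, Ndufs4 and Ndufs1 of complex I. Ndufa8 read 4912, 4004 and 3628 in the E100 controls and 2190, 2859, 1535 and 1840 in the E81 controls, with no overlap, at -1.08 ± 0.33 (adjusted p = 0.172). WT spanned both lines for this gene, with 4259, 2458, 3761 and 2052. Ndufs1 stood at -0.60 ± 0.26 (adjusted p = 0.333). The members' median between the lines was -0.24 and that of all probe sets -0.27. It was -0.04 and 0.00 after quantile normalization, and 0.37 and 0.20 with median scaling, so no direction can be read for the group.

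SRFdM-VP16 against vector passed for 3 of 85 members, all lower with SRFdM-VP16, where 0.767% of all probe sets passed lower and 0.799% in either direction. At an unadjusted p under 0.05 there were 9 members, against 13.9% of all. All 3 were dim probe sets. Cox7a1 read 473 and 588 in WT, 521 and 474 in E99, 490 and 343 in E81, and 371 in E100 with vector. With SRFdM-VP16 it read -240 and 258 in WT, -329 and 19 in E99, 145 and 378 in E81, and 147 and 190 in E100. All 7 vector arrays but 1 of E81 (343) and that of E100 (371) lay above every SRFdM-VP16 array, so the plasmids overlapped slightly, and the log2 change was -1.79 ± 0.36 (adjusted p = 0.038). SRF-VP16 arrays read -324 to 347, so Cox7a1 was low with both VP16 plasmids, and against vector the SRF-VP16 arrays were lower by a log2 change of -1.62 (adjusted p = 0.039).

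Ndufc2, a membrane-arm subunit of complex I, had a median of 214 with vector (120 to 273) and 46 with SRFdM-VP16 (-143 to 145), a log2 change of -1.30 ± 0.21 (adjusted p = 0.021). The dim probe set of Ndufb2 had a median of 196 with vector (133 to 265) and 76.5 with SRFdM-VP16 (-231 to 237), at -1.14 ± 0.22 (adjusted p = 0.032). Its bright probe sets stood at 0.16 ± 0.18 and -0.01 ± 0.17. In E100 the dim Ndufb2 probe set read 265 with vector and 237 and 152 with SRFdM-VP16, and the lowest arrays were those of E81. Array medians were 139 to 209 with vector, 54 to 180 with SRFdM-VP16 and 103 to 180 with SRF-VP16. The 54 was that of the first E81 array with SRFdM-VP16, which also gave the lowest values of Ndufc2 (-143) and Ndufb2 (-231). The 3 calls were lost with quantile normalization, with median scaling, and without the E99 SRFdM-VP16 array numbered 2. Ndufc2 kept its call in 25 of 29 alternative settings, Ndufb2 in 19 of 29 and Cox7a1 in 13 of 30, with Cox7a1 between -2.06 and -0.53 over them. The part of the array background in them was not tested beyond this. Settings that left out an SRF-VP16 array kept all arrays of this comparison, and so tested these calls only weakly. Among the 66 members above the floor in every array 0 passed, as against 3 of all 4710 such probe sets, so the count says nothing particular of the members. Their median was 0.02, against -0.21 for all such probe sets.

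**Figure D4:**
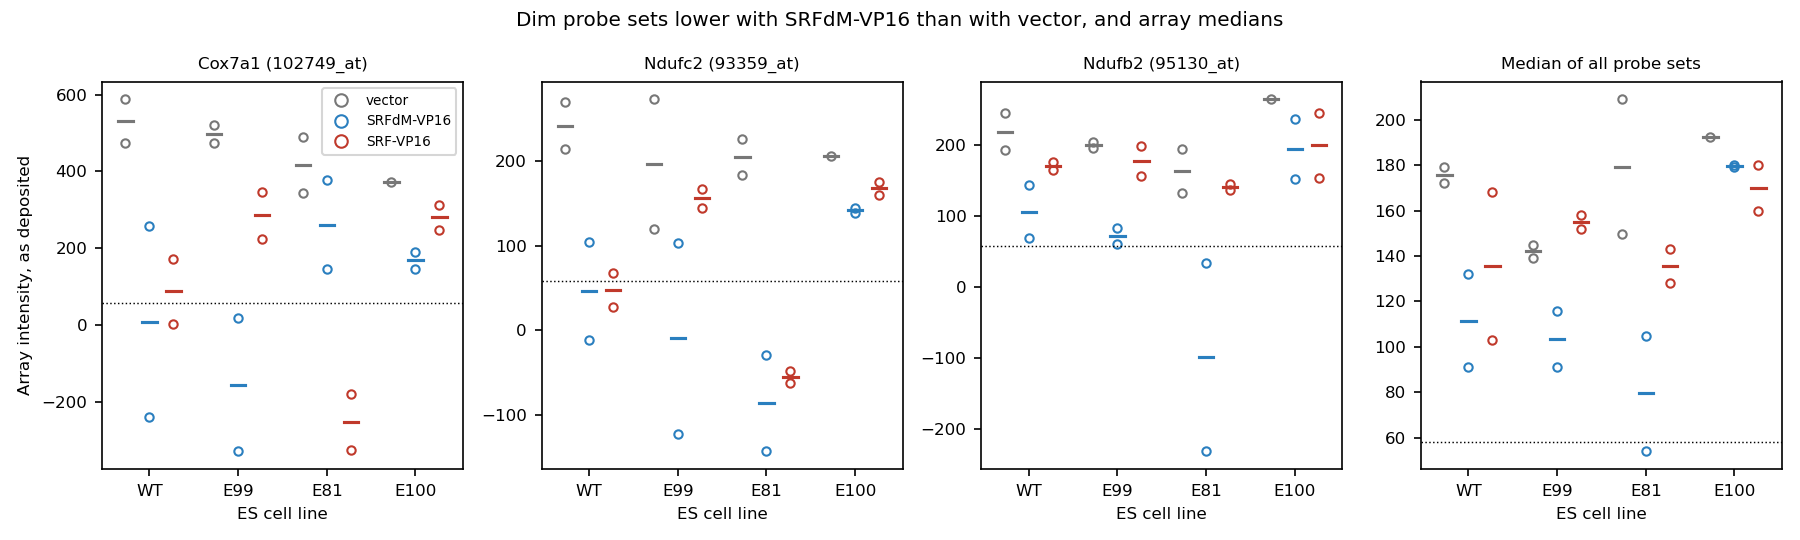
Deposited intensity (linear axes) of the dim probe sets of Cox7a1, Ndufc2 and Ndufb2 by line and plasmid, beside the median of all probe sets of each array. Circles are arrays, bars are group means and the dotted line is the floor of 58. The vector arrays are highest in most lines for all 3 probe sets. Array medians are also lower with SRFdM-VP16 than with vector on average in each line, by little in E100 (180 and 179, against 192.5 in its 1 vector array).

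Across all 12 groups, 2 of 85 members passed the F test for any difference, against 1.94% of all probe sets, and 9 had an unadjusted p under 0.05 (14.5% of all). Those that passed were Ndufc2 (adjusted p = 0.035) and the dim probe set of Ndufab1 (adjusted p = 0.039), whose group means spanned 2.05 and 1.42 on the log2 scale. Cox7a1 spanned 3.18 (adjusted p = 0.085) and the brightest Cox6b2 probe set 2.27 (adjusted p = 0.117). The bright Ndufab1 probe set ran from 1775 to 4232. The median span of the members was 0.77, against 1.30 for all probe sets, and by complex it ran from 0.58 (complex III) to 1.14 (complex IV). Both calls depended on single arrays: Ndufc2 passed in 11 of 29 alternative settings and Ndufab1 in 9 of 29.

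The spread between duplicates set the limit of these comparisons. The median SD between duplicates was 0.39 on the log2 scale for the members and 0.49 for all probe sets, and 0.35 and 0.41 among those with a median over 1000. Atp5a1 varied least of the bright members (0.10) and Uqcr11 most (0.76). Uqcr11 read 1477 and 4175 in E99 with vector, 4510 and 1820 in WT with SRFdM-VP16, and 3317 and 1125 in E81 with SRFdM-VP16. Over the 11 duplicate pairs its differences ran with those of Ndufb5 (r = 0.93), Ndufb10 (0.91), Ndufa5 (0.86) and Ndufs3 (0.83), and against those of Uqcrc2 (-0.71), Cox6c (-0.67) and Cox5b (-0.66). These correlations describe pairs of arrays that share hybridisations and carry no p. Of the 54 other bright members 10 had r over 0.7 with Uqcr11, as had 547 of 2780 bright probe sets in all. The differences had r = -0.51 with the difference in array medians and 0.09 with that of the Gapdh 5′ to 3′ signal.

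**Figure D5:**
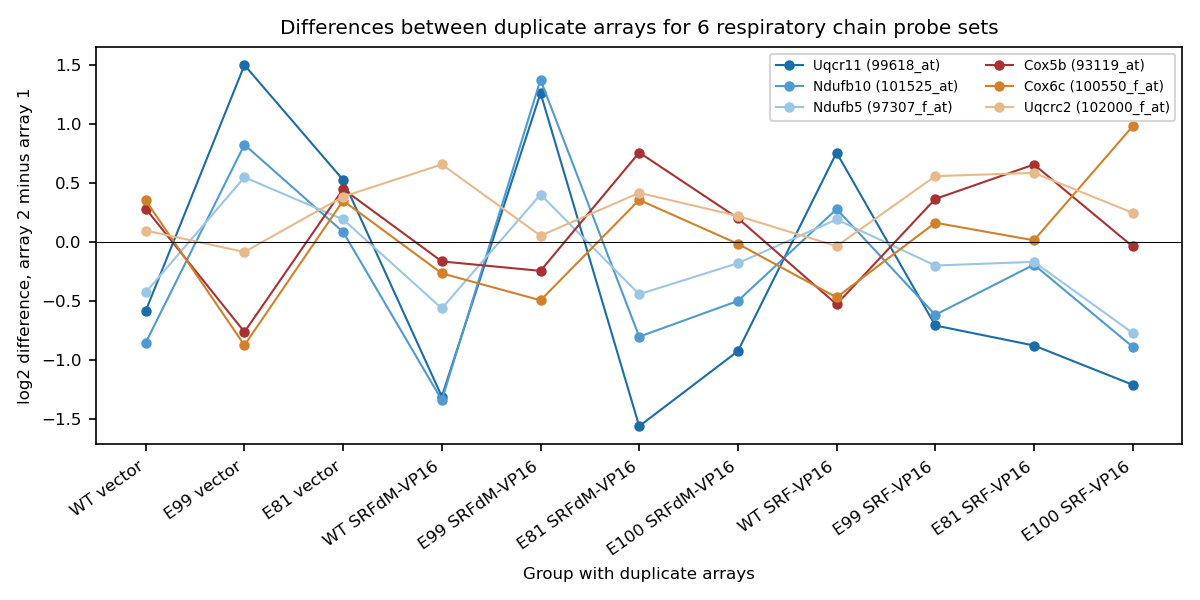
Log2 difference between the duplicate arrays of a group (array 2 minus array 1, vertical axis) for 6 respiratory chain probe sets in the 11 groups with duplicates. Lines join the values of a probe set as a guide and imply no order of groups; Uqcr11, Ndufb10 and Ndufb5 share their direction in all 11 groups, and Cox5b, Cox6c and Uqcrc2 run against them in most.

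Genes of other parts of mitochondrial metabolism were followed as lists. The mitochondrially encoded subunits had 0 of 13 genes measured. For SRF-VP16 against SRFdM-VP16 over the 4 lines, 0 genes passed among 14 tested of cytochrome c, quinone and electron entry (median 0.07), 16 of the citrate cycle (0.14), 18 of mitochondrial import and chaperones (-0.04), 15 regulators of respiratory genes (0.15), 10 of mitochondrial stress and oxidant defence (0.02), 3 of complex III and IV assembly (0.15) and 16 of glycolysis (0.21). At an unadjusted p under 0.05 there were 2, 0, 0, 3, 1, 0 and 2 of them in that order. Over all probe sets 1.96% passed, 13.4% had an unadjusted p under 0.05 and the median was 0.08, so in lists this short a count of 0 passing is near the background. These 7 lists also had 0 genes past the threshold in each other comparison reported here.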

How the data were processed

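Values were linear intensities, 1 per probe set and array, as deposited in the series' value table; how they were background-corrected and scaled, and with which software, is not given in the sources used here. Probe sets were named through the platform annotation, and 8 that pair a fitting symbol with another were left out; all 73 genes matched the RefSeq gene table and 0 symbols changed. After 66 control probe sets were removed, the 9643 probe sets that exceeded the 40th percentile of their own array on 2 or more arrays were tested. Intensities under 58 were set to 58 and taken to log2. limma 3.58.1 in R 4.3.3 fitted 1 mean per group over all 23 arrays (lmFit, eBayes with an intensity trend); tests were two-sided with Benjamini-Hochberg adjustment at 5% over all probe sets tested. The fit was tested on simulated data. Precision is limited by the number of arrays, and the lone E100 vector array was taken to scatter as much as duplicates do elsewhere.

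Members and lists were chosen with earlier results of these data known. By rule, the text names members past the threshold, otherwise those with the largest rise and fall per complex, the complex IV isoforms, and the extremes of each complex; for WT, E99 and the differences in effect, and for line and group tests, fewer or further members were chosen after their values were seen. A change of sign counts as a reversal only where the value passed on either side. The replicate numbers did not pair arrays in the same way across groups: of 15 pairs of groups, 6 had a correlation over 0.1 (range -0.393 to 0.285). All pairs with E99 were negative under vector and SRFdM-VP16, as were all pairs with WT under SRF-VP16, and the other pairs were positive. Whether duplicates share a structure that the numbers do not follow was not tested. Alternatives covered scaling, filter, floor, variance model, control plasmid, the replicate number and single arrays.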

Additional observations from a re-analysis of the deposited data

How the results depend on the processing

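The 205 named values of probe sets gave 6451 values under 34 alternative settings (23 leave out 1 array each). Of the 6451, 6365 were on the same side of the threshold, 71 weaker, 14 stronger and 1 reversed. The 6365 include 278 that changed sign without passing on either side. The reversal was Cox7a1, for which SRF-VP16 over the 4 lines turned to -1.62 with vector as the control. Counts of members past the threshold moved as follows, and the cause was not tested. For SRF-VP16 over the 4 lines (0 members) there were 2 with division by the array median (Atp5pb and Sdhaf1), 1 without the intensity trend (Ndufb2), 2 with vector as the control (Cox7a1 and Ndufc2), 1 without the WT control arrays numbered 2 (Ndufb2), and 0 to 1 with single arrays left out. For SRFdM-VP16 against vector (3) there were 0 with quantile normalization, 0 with division by the median, 0 with the filter at the 60th percentile, 1 with the floor there, and 0 to 3 with single arrays left out. For E81 against E100 (1) there were 0 with division by the median, 0 with vector alone, 2 without a filter, 2 with the stricter filter, 2 with the higher floor, and 1 to 2 with single arrays left out. For -/- against WT (0) there was 1 without a filter (Cox8b, under the floor in nearly all arrays). For any difference among groups (2) there was 1 with quantile normalization, 1 with division by the median, 0 with the stricter filter, 1 with the replicate block, and 0 to 3 with single arrays left out. SRF-VP16 in the -/- lines, its difference from WT, and its difference between E81 and E100 (each 0) gave 0 to 1 with single arrays left out; the single calls were Cox6b2, Ndufab1, and Cox6b2 or Atp5c1, without the first E100 SRF-VP16 array or, for Atp5c1, the second E81 SRFdM-VP16 array. The replicate block gave 2 members for SRFdM-VP16 against vector and 1 for E81 against E100. Since the numbers do not pair the arrays in the same way across groups, it says nothing of a structure shared by duplicates. Leaving out the single E100 vector array gave no value where that group is needed. Dim members, with signals near the floor, are limited by signal over background.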

Other observations

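The 8 probe sets left out because they pair a fitting symbol with a pseudogene or a related gene were mostly bright. Those of Cox7c, a general subunit of complex IV listed with Gm12338, ran from 19000 to 31200 and from 12134 to 22026. Those of Ndufs6, an accessory subunit of complex I listed with Ndufs6b, ran from 5318 to 15387 and from 5399 to 9426. The probe set of Atp5c1 listed with its pseudogene ran from 12997 to 23350, and those of Ndufa11 and Ndufs5 from 2278 to 5971 and from 2811 to 6984. That of Ndufb4 and its copies ran from -192 to 243. They cannot be assigned to 1 gene and were not tested as members.

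Genes with several probe sets gave signals that were not interchangeable. Ndufb2 had medians of 7897, 6513, 157 and -53 over its 4 probe sets, Cox6b2 medians of 2286, 339 and 175, and Atp5l medians of 18008 and 1521. The calls on Ndufb2 and Ndufab1 came from their dim probe sets.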
